A study of Mus musculus with 13 samples.

Results

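Chromatin accessibility was compared at 300 open regions whose peaks ranked lower in H3.3 K27M than in control oligodendrocyte progenitor cell (OPC) cultures, the dividing precursors of the myelin-forming cells of the brain. They were chosen from the peak lists of 13 ATAC-seq libraries, an assay in which the transposase Tn5 inserts sequencing adapters into open DNA. Overlapping peaks of all libraries were joined into 99746 merged peaks, of which 13075 held a peak of every library and 12751 of these lay on autosomes. In each library these 12751 shared peaks were ranked by their highest fold enrichment over local background, and the rank was written as a percentile. The score of a peak was the mean percentile of the control libraries minus that of the K27M libraries, averaged over brainstem and telencephalon, and the 300 highest scores were kept. The chosen peaks are thus 300 of 12751, and their lower rank in K27M was selected on these very libraries, so it is given as a description and is not tested.

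All cultures came from pups of litters that the labels call AMGFAP-Cre;K27M (hGFAP-Cre in the study's methods) at postnatal days 5 to 7, pooled by region and genotype, purified by panning on an antibody to PDGFRa and kept undifferentiated in proliferation medium with PDGF. The K27M cultures carried a conditional K27M allele at the endogenous H3.3 gene, switched on by Cre under a GFAP promoter that is active in neural stem and progenitor cells. The control cultures came from littermates, which in this mouse line carry the silent loxP-STOP-loxP allele without Cre according to the study's single-cell methods, and the labels do not give the alleles of the control cultures singly. There were 3 control brainstem libraries (cultures 51, 59 and 61), 3 K27M brainstem libraries (41, 59 and 61), 3 control telencephalon libraries (51, 59 and 61) and 4 K27M telencephalon libraries (41, 51, 59 and 61), where telencephalon stands for the dorsal part that the sample titles call cortex. The mouse lines were on an FVB background, whereas the sequences printed here are those of the mm10 reference. Peak lists hold no read counts, so depth is unknown, and the number of called peaks, from 16879 in control telencephalon 59 to 52466 in control brainstem 61, is the only measure of yield. All 13 libraries had a promoter peak at H3f3a, the gene that carries the mutation, but this does not check the genotype because peaks carry no allele. Of 8 OPC marker genes, 7 to 8 had a promoter peak in each library, and Pdgfra, Olig1, Olig2, Sox10, Ptprz1, Gpr17 and Nkx2-2 had it in all. Of 8 genes for each other cell type, a promoter peak was found at 0 to 3 for microglia (none in any library at Cx3cr1, Csf1r, C1qa, Itgam or Trem2), 1 to 5 for endothelium (none at Cdh5 or Tek) and 2 to 6 for mature oligodendrocytes (none at Mag or Mog, but all libraries at Cnp and Ugt8a). It was found at 3 to 7 for astrocytes (none at Gjb6, but all libraries at Gfap, Slc1a2 and Gja1). For neurons it was found at 5 to 8 (all libraries at Tubb3, Map2, Snap25, Syt1 and Elavl4).

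An ATAC-seq peak marks DNA from which nucleosomes have been displaced, usually by bound transcription factors, at promoters or at distal enhancers. H3.3 K27M is a histone mutation of diffuse midline glioma that inhibits the methyltransferase complex PRC2 and lowers the repressive mark H3K27me3. Promoters are commonly open in many cell types, whereas distal peaks are more often particular to a cell type or state. AP-1, a pair of Fos and Jun family proteins, binds the letters TGANTCA at many distal elements and is induced by growth factors and stress. The following 5 stretches of the chosen peaks show the kinds of region concerned. The Eya1 and Tsen15 stretches are the bases just upstream of the outermost annotated start in the peak, on the gene's own strand, and stand for the promoter peaks with the highest scores. The Gm11232 and Opcml stretches are the central 200 bases, on the plus strand, of the highest-scoring distal peaks with an AP-1 motif, and the Phlda1 stretch is the centre of the distal peak that separated the genotypes completely. Capitals mark TGANTCA in the distal stretches and the GC box GGGCGG (or CCGCCC) in the promoter stretches.
Eya1, chr1:14310236-14310355, minus strand: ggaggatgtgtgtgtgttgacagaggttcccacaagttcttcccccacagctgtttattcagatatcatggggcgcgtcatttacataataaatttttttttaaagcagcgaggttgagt
Tsen15, chr1:152386689-152386808, minus strand: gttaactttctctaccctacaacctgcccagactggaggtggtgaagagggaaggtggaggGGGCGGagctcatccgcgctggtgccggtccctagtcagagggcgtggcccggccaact
Gm11232, chr4:71806180-71806379: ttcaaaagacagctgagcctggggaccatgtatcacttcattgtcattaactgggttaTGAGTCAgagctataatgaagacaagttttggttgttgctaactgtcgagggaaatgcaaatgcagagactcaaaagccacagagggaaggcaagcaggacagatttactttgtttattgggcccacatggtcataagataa
Opcml, chr9:27981859-27982058: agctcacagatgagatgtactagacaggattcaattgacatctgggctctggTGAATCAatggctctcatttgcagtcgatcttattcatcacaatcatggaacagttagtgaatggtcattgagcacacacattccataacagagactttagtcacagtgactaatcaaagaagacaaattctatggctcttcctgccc
Phlda1, chr10:111516580-111516779: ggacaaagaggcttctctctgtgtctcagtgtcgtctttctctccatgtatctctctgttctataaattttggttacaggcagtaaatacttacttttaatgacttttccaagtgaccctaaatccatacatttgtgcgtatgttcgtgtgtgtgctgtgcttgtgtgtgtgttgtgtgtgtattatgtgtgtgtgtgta

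The chosen peaks had scores from 38.1 down to 18.1 percentile points. Among all shared peaks the median score was -0.119 and the lowest was -41.4, and 275 peaks lay at or below minus the limit of 18.1. Scores thus reached about as far on the side of higher K27M ranks as on the chosen side. At the limit, the peaks in an intron of Rsf1 (18.17), near Gypc (18.14) and at the promoter of Gm26519 (18.12) were kept. The peaks at the promoter of Tubg2 (18.10), in an intron of Soga1 (18.08) and near Ppargc1a (18.07) were not. Which peaks were kept depended on single libraries and on the measure, as 210 to 249 of the 300 were chosen again without any 1 library and 169 with ranks of −log10 p in place of fold. In fold enrichment the differences were small, since the median ratio of mean K27M to mean control fold was 0.909 over the chosen peaks (range 0.841 to 0.969) and 1.02 over all shared peaks. The mean percentile of the 300 peaks was 59.3, 62.5 and 60.0 in control brainstem cultures 51, 59 and 61, and 36.1, 37.8 and 37.9 in K27M brainstem cultures 41, 59 and 61. It was 59.3, 67.1 and 61.6 in control telencephalon cultures 51, 59 and 61, and 40.2, 41.5, 37.1 and 45.7 in K27M telencephalon cultures 41, 51, 59 and 61. The groups do not overlap in this mean because the peaks were chosen for it, and the highest value was that of control telencephalon 59, the library with the shortest peak list.

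**Figure D1:**
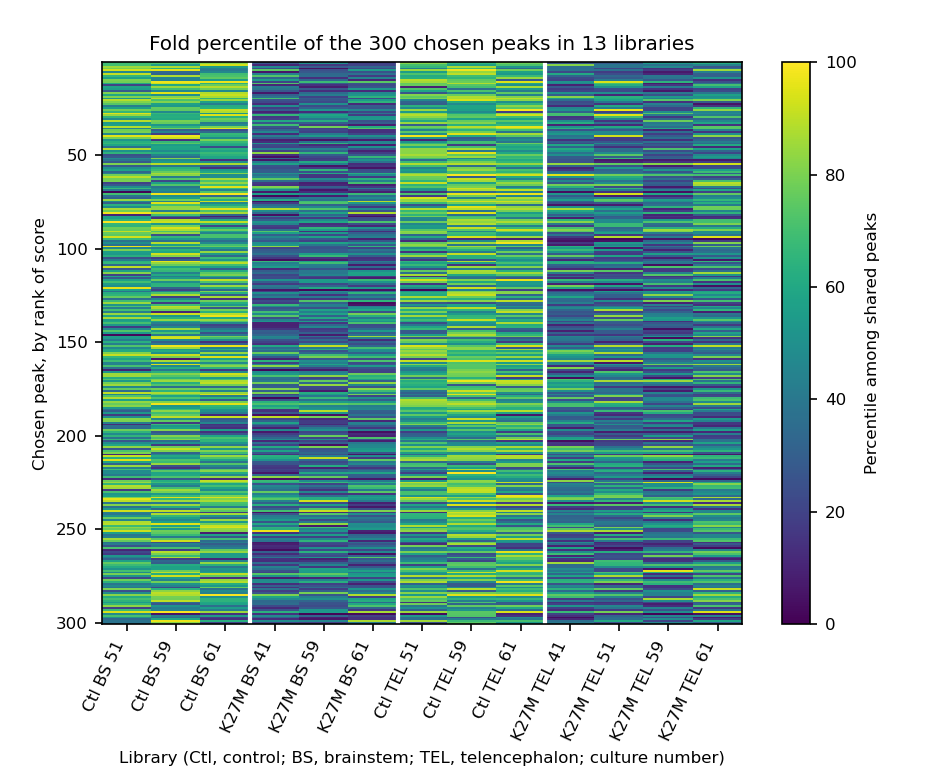
Fold percentile (colour, 0 to 100) of the 300 chosen peaks (vertical axis, by rank of score) in 13 libraries (horizontal axis; Ctl, control; BS, brainstem; TEL, telencephalon; numbers, cultures). Control columns are brighter than K27M columns in both regions by choice of the peaks, with mean percentiles of 59.3 to 67.1 against 36.1 to 45.7, and single peaks vary within each group.

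The peak with the highest score lay at the promoter of Eya1, a phosphatase and transcriptional coactivator in organ development (ENSMUSG00000025932.14; peak at chr1:14308584-14310622, mm10). Its percentiles were 68.9, 70.8 and 83.2 in control brainstem and 25.5, 47.3 and 18.9 in K27M brainstem. In telencephalon they were 81.6, 64.9 and 77.7 in controls and 26.8, 28.5, 52.3 and 61.6 in K27M, so that every control library stood above every K27M library. Its fold enrichment was 3.94 ± 0.627 (SD, n = 6) in controls and 3.32 ± 0.33 (SD, n = 7) in K27M, a ratio of 0.843, and the folds themselves overlapped between the genotypes.

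The peak at the promoter of Tsen15, a subunit of the endonuclease that splices tRNAs (chr1:152385865-152387086), had rank 3 by score. Its percentiles were 85.3, 87.5 and 54.4 in control brainstem against 47.6, 29.3 and 33.2 in K27M brainstem, and 66.4, 87.0 and 52.4 in control telencephalon against 36.7, 38.6, 47.3 and 26.6 in K27M telencephalon. The lowest control, at 52.4, stood above the highest K27M library, at 47.6. An intergenic peak 8984 bp from the start of Phlda1, a pleckstrin homology-like protein induced by growth factors (chr10:111515724-111517323), had lower ranks throughout. It had percentiles of 28.8, 46.7 and 47.8 in control brainstem against 27.9, 13.5 and 12.2 in K27M brainstem, and of 58.6, 71.5 and 41.6 in control telencephalon against 21.0, 22.9, 6.29 and 22.7 in K27M telencephalon. The genotypes were separated there by less than 1 percentile point, between control brainstem 51 and K27M brainstem 41.

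The peak over the shared promoter of Zdhhc6, a protein palmitoyltransferase, and Vti1a, a SNARE protein of vesicle fusion (chr19:55314876-55317155), was the last chosen peak that separated the genotypes completely, with rank 139 by score. Its percentiles were 58.7, 59.5 and 73.1 in control brainstem against 51.4, 55.1 and 50.8 in K27M brainstem, and 61.0, 63.6 and 58.5 in control telencephalon against 22.5, 31.9, 13.6 and 48.5 in K27M telencephalon. Here the telencephalic libraries contributed most, with a difference of 31.9 percentile points against 11.3 in brainstem.

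**Figure D2:**
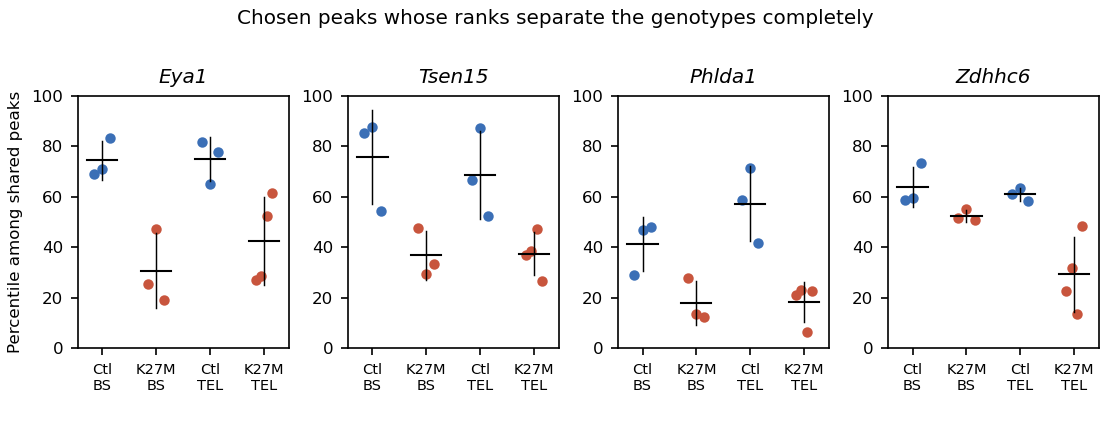
Percentile among shared peaks (vertical axis, 0 to 100) of the 4 chosen peaks that separated the genotypes completely, in control (blue) and K27M (red) brainstem (BS) and telencephalon (TEL) libraries. Points are libraries, horizontal lines means and vertical lines SD (n = 3, 3, 3 and 4); the lowest control stands above the highest K27M library in each panel, by the widest margin, 52.4 against 47.6, at Tsen15.

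Of all 12751 shared peaks, 8 (0.0627%) had every control library ranked above every K27M library, and the 4 just described were chosen peaks. The reverse separation, every K27M above every control library, was found at 3 shared peaks. To see how many such peaks the labels give when they carry no genotype, the labels were exchanged within each region in all 700 arrangements. The median count was 7 and the highest 28, and the count of 8 was reached or passed often enough that it did not pass the exact permutation test (one-sided p = 0.403). With control and K27M cultures of the same number taken as pairs, since the study speaks of matched cultures, which leaves 10 libraries, the count was 45 and did not pass either (exact permutation p = 0.5).

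**Figure D3:**
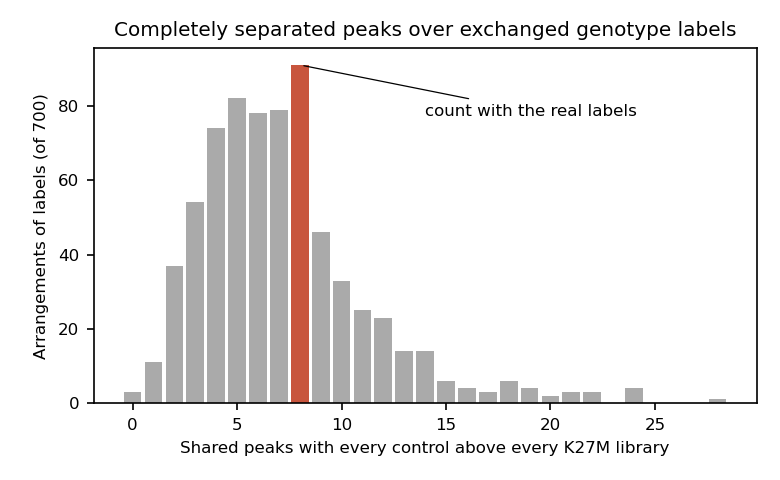
Number of arrangements of the genotype labels within regions (vertical axis, of 700) by the number of shared peaks at which every library labelled control ranked above every library labelled K27M (horizontal axis). The real labels give 8 peaks (red bar), close to the median of 7.

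Within single regions complete separation was much more frequent, among the chosen peaks and in the background. In brainstem, with 3 against 3 libraries, 108 of the 300 peaks separated the genotypes with control above, beside 557 (4.37%) of all shared peaks. In telencephalon, with 3 against 4 libraries, 68 did so, beside 370 (2.9%) of all shared peaks, and in both regions at once 14 did so, beside 23 (0.18%). These counts follow from the choice of the peaks. Over all shared peaks the opposite separation, K27M above control, was found at 604 peaks in brainstem and 323 in telencephalon, and at 15 in both.

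The limma test on ranks, with Benjamini-Hochberg adjustment over 12751 peaks, called no shared peak (0%) lower in K27M than in control, and the smallest adjusted p for genotype was 0.966. At an unadjusted p under 0.05, 347 shared peaks (2.72%) were lower in K27M and 289 were higher. Of the chosen peaks 226 were among the 347, as a result of how they were selected, and none was called after adjustment.

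The 2 regions agreed in direction at most chosen peaks, again by choice. The difference between control and K27M was above 0 in both regions at 293 of 300 peaks (97.7%), against 25.5% of all shared peaks, with medians of 22.9 percentile points in brainstem and 21.1 in telencephalon. At 156 peaks the difference was larger in brainstem and at 144 in telencephalon. Across all 12751 shared peaks, which share libraries and are not independent, the differences of the 2 regions had a correlation of 0.0413, so a peak's rank difference in 1 region told little of that in the other.

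**Figure D4:**
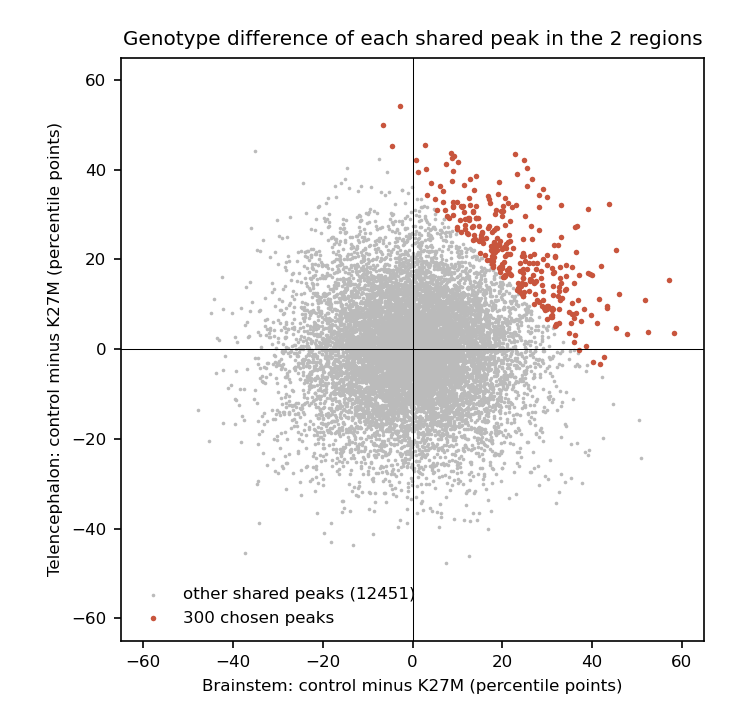
Control minus K27M percentile difference of each shared peak in brainstem (horizontal axis) and telencephalon (vertical axis), in percentile points, with the 300 chosen peaks in red and the other 12451 in grey. The grey points form a round cloud (correlation over all peaks 0.0413), and the red points are its upper right edge, cut off by the sum of both differences.

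A test that the choice does not fix is to choose in 1 region and measure in the other. Most culture numbers occur in both regions, so the libraries measured need not be independent of those that chose. The part of shared cultures in these differences was not tested. The 300 peaks ranked highest on brainstem libraries alone were 1.60 percentile points higher in control than in K27M telencephalon libraries; in the exact permutation test this gave a one-sided p of 0.114 (35 arrangements, adjusted p = 0.2 over both tests, smallest possible p 0.0286). The 300 peaks ranked highest on telencephalon libraries alone were 2.14 percentile points higher in control than in K27M brainstem libraries, with an exact permutation p of 0.2 on 1 side (20 arrangements, adjusted p = 0.2, smallest possible p 0.05). With cultures of the same number taken as pairs, the differences were 0.202 points in telencephalon (exact permutation p = 0.5, smallest possible 0.125) and 1.16 points in brainstem (exact permutation p = 0.25, the smallest possible). These differences had the direction of the choice, and all were small beside the 22.9 and 21.1 points of the chosen peaks.

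Cultures that the choice had not used gave a mixed picture. When the 300 peaks were chosen without culture 59, they were 7.35 percentile points higher in the control than in the K27M telencephalon library of that culture (185 of 300 peaks higher in control) and 1.27 points higher in its brainstem library (150 of 300). When chosen without culture 61, they were 3.76 points lower in control brainstem (control minus K27M of -3.76, 133 of 300 higher) and 1.48 points lower in control telencephalon (-1.48, 142 of 300 higher). Without culture 51, the difference in its telencephalon libraries was 0.732 points (151 of 300 higher). Of these 5 differences 3 were above 0, and both of culture 61 were below it.

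For single peaks, the difference of the genotype effect between regions was tested in the same limma fit. No shared peak (0%) and no chosen peak passed after adjustment (smallest adjusted p = 0.998), and at an unadjusted p under 0.05 there were 503 shared peaks (3.94%) and 12 chosen peaks (4.0%). The chosen peaks were therefore called about as often as the background. At single peaks the values could still be uneven between regions. The peak at a promoter of Smad3, which carries TGF-beta signals to the nucleus, had percentiles of 80.2, 95.0 and 88.6 in control brainstem and 6.58, 34.8 and 47.2 in K27M brainstem. In telencephalon its percentiles were 26.4, 45.7 and 75.2 in controls and 51.5, 49.5, 40.6 and 40.0 in K27M, a range that lies within that of the controls. An intronic peak of Epn2, an endocytic adaptor, likewise differed by 42.6 points in brainstem and by -1.80 in telencephalon.

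The region contrast, brainstem against telencephalon, was not used in the choice. Over all shared peaks 4 (0.0314%) passed the limma test after adjustment, at the promoters of the homeobox genes Irx3 and Irx5, in an intron of Cacna1e and near Pgap1, and no chosen peak was among them. The Irx3 peak ranked higher in brainstem, and those of Irx5, Cacna1e and Pgap1 ranked higher in telencephalon. At an unadjusted p under 0.05, 8 chosen peaks (2.67%) ranked higher in brainstem, beside 366 shared peaks (2.87%), and 14 (4.67%) ranked higher in telencephalon, beside 378 (2.96%). The chosen peaks thus held no regional difference that passed the adjusted test.

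Fewer of the chosen peaks than of all shared peaks lay at promoters. A promoter, taken from 2 kb upstream to 1 kb downstream of a transcription start, was overlapped by 147 (49.0%, 95% Wilson interval 43.4 to 54.6%), against 69.2% of all shared peaks and 69.3% of the 300 peaks with the lowest scores, whose ranks were most above control in K27M. Of the others 12 lay over an exon, 83 in an intron and 58 between genes. The median distance to the nearest protein-coding start was 5834 bp, against 222 bp over all shared peaks and 208 bp over the lowest 300. No test was made of these shares, because neighbouring peaks and peaks of the same libraries are not independent. The Wilson interval treats peaks as independent, so it does not measure how the share varies between cultures. When each library's own peaks had to cover at least 50% of the merged peak, 3150 peaks were shared and 22 of the 300 were chosen again, and the promoter share was 70.3% for the peaks then chosen, 78.6% for all 3150 and 74.0% for the lowest 300.

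The chosen peaks had a median GC content of 49.3% and 1.56 CpG per 100 bp, against 53.7% and 4.09 over all shared peaks. Among promoters alone the medians were 53.3% GC for chosen and 56.4% for all shared peaks, and outside promoters 45.4% and 47.2%, lower for the chosen peaks in each place. Merged widths were similar, with medians of 1551 and 1666 bp. The chosen peaks lay in the middle of the range of folds, with quartiles of the mean percentile at 39.4 and 60.2, against 30.2 and 69.7 over all shared peaks, and their ranks varied more within groups (median SD 17.4 against 14.5 percentile points). The lowest 300 peaks had quartiles of 42.5 and 62.5 and a median SD of 16.5, so these properties were common to both ends of the score.

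The stretch called as a peak was longer in K27M at most chosen peaks. The median number of bases called within a chosen peak was 887 in control and 963 in K27M libraries, and the K27M mean was the larger at 224 of 300 peaks (74.7%), against 67.9% of all shared peaks and 55.3% of the lowest 300. The median ratio of K27M to control was 1.09, against 1.05 over all shared peaks and 1.02 over the lowest 300. The fold of a broad peak is a mean over the stretch called, and the part of the longer calls in the lower fold was not tested.

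Outside promoters more chosen than shared peaks, by share, carried an AP-1 motif. The letters TGANTCA, which read the same on both strands, were present in the central 200 bases of 38 of 153 chosen peaks outside promoters (24.8%, 95% Wilson interval 18.7 to 32.2%), against 389 of 3927 shared peaks outside promoters (9.91%) and 6 of 92 of the lowest 300 (6.52%). The Gm11232 and Opcml stretches printed above hold it. At promoters the shares were 4.76%, 2.52% and 1.44% in the same order. Among 13 motifs searched AP-1 was singled out after its share was seen, and for the other 12 the share outside promoters differed from that of all shared peaks by -3.34 points (GC box) to 4.46 points (E-box CAGCTG). At promoters the GC box was held by 53.1% of chosen and 50.0% of all shared peaks. A match to these letters does not show that the factor is bound. Here too the Wilson interval treats peaks as independent and does not measure the spread between cultures.

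The AP-1 share depended on which cultures entered the choice. When the peaks were chosen again without both libraries of 1 genotype and culture, settings added after seeing the data, it was 12.2% (16 of 131) without control 59 and 16.2% without K27M 41, and 20.5, 22.1, 22.8 and 24.3% without control 51, control 61, K27M 59 and K27M 61. Among single libraries the share was lowest without K27M brainstem 41 (18.2%) and control brainstem 61 (18.7%), below its values without control telencephalon 59 (19.9%) or control brainstem 59 (21.6%). With the 50% rule on coverage it was 11.2% among the chosen peaks, 7.28% among the 3150 peaks shared under that rule and 3.85% among the lowest 300. The next comparison used shared peaks outside promoters that were neither chosen nor among the lowest 300. Those with the motif ranked 3.81 percentile points above those without it in control brainstem 59 and 4.18 points above in control telencephalon 59. In the other 4 control libraries this excess was -1.23, 1.27, -0.806 and 1.30 points, and in the 7 K27M libraries it ranged from -1.44 to 2.1, with the highest value in K27M telencephalon 59. Both control libraries of culture 59 thus stood above all others, and the part of that culture in the share was not tested.

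**Figure D5:**
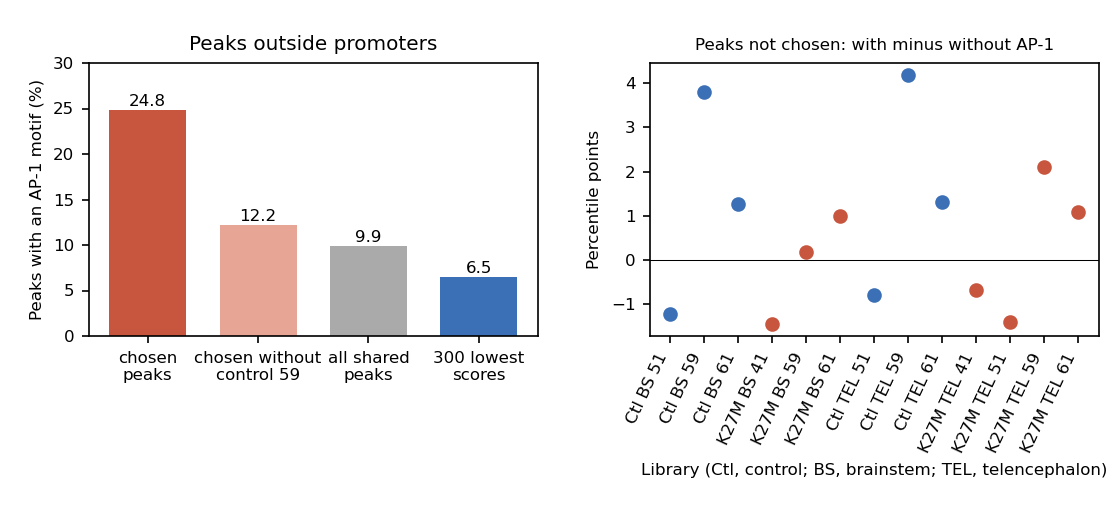
Left, share of peaks outside promoters with TGANTCA in the central 200 bases (vertical axis, %) for the chosen peaks, the peaks chosen without both control 59 libraries, all shared peaks and the 300 lowest scores. Right, mean percentile of peaks outside promoters with the motif minus that without it, among peaks neither chosen nor of the 300 lowest scores, per library (blue, control; red, K27M; BS, brainstem; TEL, telencephalon). Control 59 is highest in both regions, at 3.81 and 4.18 points.

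Single libraries differed between the distal peaks with the motif and the highest scores. The intergenic peak 48315 bp from Gm11232 (chr4:71805845-71807138) had percentiles of 93.0, 95.4 and 41.6 in control brainstem and 74.9, 25 and 55.8 in K27M brainstem. In telencephalon it had 85.1, 98.0 and 77.8 in controls and 37.6, 37.3, 18.3 and 85.5 in K27M, so the groups overlapped in both regions while culture 59 was highest among controls and lowest among K27M libraries. The peak in an intron of Opcml, a cell adhesion protein of neurons (chr9:27981657-27982608), had percentiles of 78.2, 97.4 and 97.1 in control brainstem against 20.4, 68.1 and 74.4 in K27M brainstem. In telencephalon it had 86.2, 77.6 and 94.2 in controls and 51.1, 93.9, 64.8 and 24.8 in K27M, where K27M culture 51 reached the level of the controls and culture 59 was the lowest control.

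The chosen peaks were assigned to 295 genes, a peak being given to the gene whose promoter it overlapped, else the gene around it, else the nearest start. With 2 peaks each, 9530036O11Rik, Ankrd17, Igsf11, Junos and Schip1 recurred. Chromosomes held between 1.16% (chromosome 8) and 3.93% (chromosome 3) of their shared peaks among the chosen. Among the 20 highest scores, 9 peaks were at promoters, among them those of Slc35b3, which imports the sulphate donor into the Golgi (score 32.4), Pxylp1, a phosphatase of proteoglycan synthesis (31.3), Spag1, an assembly factor of axonemal dynein (32.3), Fyco1, an adaptor of autophagosome transport (30.9), Urgcp (32.7) and the antisense RNA 1700110K17Rik (32.0). Introns held the peaks of Mcu, the pore of the mitochondrial calcium uniporter (33.2), Gbf1, an exchange factor of Golgi Arf proteins (31.4), and Dlgap1, a postsynaptic scaffold (29.9). The remaining distal peaks lay nearest to Gpr149, an orphan receptor (36.3), Olfr545, an odorant receptor (32.9), and Clint1, a clathrin adaptor (31.8). These genes belong to many different processes, and a distal peak need not act on its nearest gene.

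Of all shared peaks, 2.35% were chosen, and the counts at signalling genes can be read beside that share. An intergenic peak 159090 bp from Lef1, a transcription factor of Wnt signalling, had rank 4 by score (33.8; chr3:130950585-130951668). Its percentiles were 79.6, 63.8 and 44.0 in control against 23.6, 4.60 and 22.8 in K27M brainstem, which do not overlap, and 43.0, 69.9 and 33.9 in control against 36.3, 21.0, 13.5 and 36.3 in K27M telencephalon, which do. It was the only chosen peak of the 42 shared peaks at Wnt genes. For BMP and TGF-beta 2 of 41 were chosen, at Smad3 (31.0) and near Smad5, which carries BMP signals (19.3). For receptor tyrosine kinases and ERK 1 of 61 was chosen, in an intron of Etv5, an ETS factor downstream of ERK (19.3). None of 32 peaks at Notch genes and none of 15 at Hedgehog genes was chosen.

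At genes of OPC identity 3 of 80 shared peaks were chosen, in introns of Epn2 (20.4) and of Fyn, a kinase of oligodendrocyte differentiation (18.6), and 29219 bp from Sox9, a glial transcription factor (19.4). None of 35 peaks at genes of oligodendrocyte maturation and myelin was among them. Among neuronal markers 1 of 14 was chosen, at a promoter of Elavl4, an RNA-binding protein (25.6), and among astrocyte markers 1 of 15, at the promoter of the glutamate transporter Slc1a2 (19.6). Elavl4 had percentiles of 28.7, 38.7 and 30.3 in control against 25.9, 5.80 and 15.1 in K27M brainstem, and of 69.2, 36.2 and 62.7 in control against 32.4, 25.1, 8.25 and 21.3 in K27M telencephalon, so that it separated the genotypes within each region but not across both. None of 4 peaks at microglial and endothelial genes was chosen. Among all 8 neuronal marker genes 5 to 7 had a promoter peak in control and 6 to 8 in K27M libraries. In the same order the ranges were 2 to 5 and 4 to 6 for mature oligodendrocytes, 3 to 7 and 4 to 7 for astrocytes, and 0 to 2 and 1 to 3 for microglia. In both genotypes they were 7 to 8 for OPC and 1 to 5 for endothelium. The part of other cells in these ranks was not tested.

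The other lists follow in the same way. Among ion channels and transmitter receptors 4 of 84 shared peaks (4.76%) were chosen, near Kcna2 (21.0) and in introns of Grid1 (20.6), Kcnd3 (19.7) and Kcnq5 (19.4), which are potassium channels except for the delta glutamate receptor Grid1. Among axon guidance and adhesion genes 3 of 139 (2.16%) were chosen, in introns of Cdh20 (21.3), Nrcam (21.2) and Cntn1 (20.3). The cell cycle list had 1 of 44, in an intron of Ccnd3, cyclin D3 (19.3), the homeobox list 1 of 58, in an intron of the paired-domain gene Pax5 (24.9), and the list of AP-1 and immediate-early factors 1 of 41, in an intron of the repressor Bach2 (19.2). That list does not hold Junos, the opposite-strand transcript of Jun, so the 2 chosen peaks assigned to Junos are not in its count. None of 37 peaks at genes of Polycomb and the H3.3 machinery and none of 38 at genes of cholesterol and fatty acid synthesis was chosen.

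Over all 17 lists, 19 of 761 shared peaks were chosen (2.5%), against 2.35% of all shared peaks, which the choice fixes, and 11 lists had a chosen peak and 6 had none. Median scores of the lists lay between -1.66 (maturation and myelin) and 4.38 (neuronal markers), beside -0.119 over all shared peaks. None of the lists is tested here.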

How the data were processed

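ATAC-seq peaks of 13 OPC cultures were used. Per the study's methods, the authors ran the nf-core ATAC-seq pipeline, aligning reads to mm10 with BWA 0.7.17-r1188, removing blacklisted reads and calling broad peaks with MACS2 2.2.7.1 in each library singly; the cutoff and any Tn5 shift are not given in the sources used here. The deposited fold enrichment is a ratio over local background. The deposited −log10 p and −log10 q are means over a peak, and the deposited score restates the −log10 q. The authors normalised none of them between libraries, hence the ranks.

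Peaks overlapping by at least 1 bp were joined. Ranks were tested as normal scores with limma 3.58.1 (R 4.3.3; 4 group means, trend on mean log2 fold), adjusted by Benjamini-Hochberg and called under 0.05. Tests were run on simulated data with independent noise in each library, which does not cover effects shared by libraries of the same culture. Replicates are separate cultures of pooled pups, and permutation tests exchanged genotype labels within region. The study modelled matched cultures; the labels give only culture numbers, so the fit with pairs was an alternative.

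Genes and places came from GENCODE M21 on GRCm38, and motifs were searched on both strands of the central 200 bases: AP-1 TGANTCA, CRE TGACGTCA, SOX AACAAAG, E-box CAGCTG, NFI TTGGCA, ETS CCGGAAG, GC box GGGCGG, NRF1 and CTCF (core motifs), YY1 AAGATGGC, POU ATGCAAAT, homeobox TAATTA and TEAD GGAATG. None of these is part of another. Peaks named are the 20 highest scores (1 is not reported here), up to 4 per gene list by score, complete separations, and 3 on each side of the limit; Irx3, Irx5, Cacna1e and Pgap1 and the genes with 2 peaks were named after their values were seen. Chosen peaks, gene lists and tests were selected with earlier results of these data known.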

Additional observations from a re-analysis of the deposited data

Results flagged for a closer look

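The only group large enough for a test of single outlying libraries was K27M telencephalon, with 4 libraries. Of 49 values examined there (44 named peaks and 5 library means), 4 had a library far from the other 3, and chance alone gives such a result in about 1 of 20 groups. The peak near Gpr149 had a percentile of 81.9 in culture 41, against 38.2 to 43.9 in the others. The peak near Phlda1 had 6.29 in culture 59, against 21.0 to 22.9. In culture 59 the Epn2 peak had 58.7, against 43.3 to 44.6, and the Smad5 peak had 46.4, against 6.80 to 13.5. Causes were not tested.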

How the results depend on the processing

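Depth is unknown, so no counting error can be given. The limma test for genotype called 0 shared peaks in every setting and the test of the genotype effect between regions called 0 chosen peaks. The region test called 0 chosen peaks except with ranks of −log10 p, where it called 3. The replicate block paired the genotypes within each region, so it gave no region test. Libraries of the same culture number were not paired between regions in any setting. Of the 300 peaks, 169 were chosen again with ranks of −log10 p, 1 with peaks of −log10 p of at least 10, 22 when a library's peaks had to cover 50% of the merged peak, 115 at equal peak numbers, 174 with the replicate block, 173 without both control libraries of culture 59 (added after seeing the data) and 210 to 249 without single libraries. With width-weighted mean folds 296 were chosen again, and with scaled log2 folds 214. Completely separated peaks numbered 0 (exact permutation p = 1), 1 (p = 0.773) and 3 (p = 0.767) with the −log10 p minimum, the 50% rule and equal peak numbers, 5 with scaled log2 folds (p = 0.721), 45 with the replicate block (p = 0.5), 28 without both control 59 libraries (p = 0.8) and 11 to 20 without single libraries (p from 0.128 to 0.807), as fewer libraries are easier to separate; they were 16 without any 1 control brainstem library or K27M brainstem 61, 13 and 14 without K27M brainstem 41 and 59, 18 without control telencephalon 51, and 20 without K27M telencephalon 41 or 61. The brainstem difference of peaks chosen on telencephalon was -0.532 points (exact permutation p = 0.65) with −log10 p of at least 10, -0.0993 (p = 0.55) at equal peak numbers and 0.191 to 3.38 without single libraries, and 2.95 without K27M telencephalon 41, where p reached 0.05, the smallest possible. The telencephalon difference of peaks chosen on brainstem was above 0 in the settings run, but fell to 0.164 with −log10 p of at least 10 and to 0.202 with the replicate block (exact permutation p = 0.5), where the brainstem difference was 1.16; it was 0.392 to 2.86 without single libraries. With ranks of −log10 p the completely separated peaks numbered 10 (exact permutation p = 0.214). With those ranks the brainstem difference was 2.95 points (exact permutation p = 0.2) and the telencephalon difference 3.48 points (exact permutation p = 0.0857). The promoter share was 70.3% with the 50% rule and 45.7 to 56.0% without single libraries. Without both libraries of 1 genotype and culture (added after seeing the data) it was 44.7% (control 51), 56.3% (control 59), 59.3% (control 61), 54.7% (K27M 41), 51.7% (K27M 59) and 50.7% (K27M 61). The AP-1 share was 11.2% with the 50% rule and 18.2 to 25.8% without single libraries. It was 12.2% without both control 59 libraries and 16.2% without both K27M 41 libraries. In a window of 400 bp the AP-1 share was 35.3%, against 18.4% of all shared peaks. Scores of named peaks stayed above 0 (5.42 to 43.4) with ranks of −log10 p, with width-weighted mean folds, without single libraries and with the replicate block. They were not computed for the other settings. Most of these peaks were chosen for a high score on the same libraries, so this range is a description only. The study speaks of cultures matched between conditions, the labels give only the culture numbers, and deviations of same-numbered libraries correlated at -0.0464 to 0.121, with 5 of 10 libraries correlating best with their own number. Each was compared with only the 3 or 4 libraries of the other genotype in its region, so some best matches arise without any pairing. Same-numbered libraries of different regions were not compared. Causes were not tested.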
